A study of Mus musculus with 6 samples.

Results

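RNA counts were examined for 10 transcription factor genes that specify the neurons of the dorsal root ganglia (DRG) and their subtypes, in sciatic nerves of control mice and of mice lacking Dok6. The genes were chosen by name, with earlier results of these data known, and no measured value enters the rule. They are Pou4f1, Pou4f2, Pou4f3, Isl1, Isl2, Runx1, Runx3, Tlx3, Etv1 and Shox2, and all 10 have a row among the 54532 genes of the count table. The controls were 3 mice of genotype WT, and the mutants 3 mice of genotype Dok6 KO, all at postnatal day 3 (P3) and with 1 library per mouse. The controls were called littermates, without saying which mice shared a litter. In the mutant line, exon 3 of Dok6 was deleted throughout the body with EIIA-cre, a Cre that acts in the fertilized egg, on a C57BL/6 background. Neurons, Schwann cells and all other cell types of the mutants therefore carry the deletion, and the sex of the mice was not distinguished. The study sequenced these nerves in search of pathways that act downstream of Dok6, and the comparison here is of the sensory neuron factors. Dok6 itself was at 17.9, 11.9 and 17.5 CPM (counts scaled to a common library size, with TMM factors) in the control libraries and at 7.26, 5.78 and 7.15 in the mutant libraries.

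Sensory neurons of the DRG arise from the neural crest, and their cell bodies lie beside the spinal cord while their axons run in the sciatic nerve. Pou4f1 (Brn3a) and Isl1 are homeodomain factors present in nearly all newborn sensory neurons, where they end the early neurogenic program and start subtype genes. Runx1 and Runx3 then divide the lineages, Runx1 directing pain, itch and temperature neurons and Runx3 the proprioceptors that sense muscle length. Most of these factors also act outside the DRG. Pou4f1, Isl1, Tlx3 and Shox2 are used by neurons of the spinal cord, Isl1 and Isl2 by motor neurons, Runx1 and Runx3 by blood cells, Pou4f2 by retinal ganglion cells and Pou4f3 by hair cells of the inner ear. In libraries of bulk tissue, fewer cells of a type and less RNA per cell cannot be told apart.

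The libraries held between 17699904 and 18678170 counts, so that 3 counts in a library, taken as the smallest detectable level, corresponded to between 0.156 and 0.172 CPM. This floor covers counting error only. Markers of spinal cord neurons were abundant in libraries labelled as sciatic nerve. The 16 spinal interneuron markers summed to between 1363 and 1544 CPM in the controls and between 1096 and 1289 in the mutants, with none at 0 and 15 at 1 CPM or more in every library. The 14 Schwann cell markers summed to between 159 and 821 CPM in the controls and to 806, 4773 and 400.3 in mutant mice 1, 2 and 3, so mutant mouse 2 stood apart. The 10 skeletal muscle markers summed to between 16.6 and 25.8 CPM in the controls and to 630, 342 and 118 in the same mutants. The part of these differences between libraries in the results below was not tested.

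The stretches before the starts of 4 of the genes show the promoters of factors that moved and of one that did not. Each is the 250 bases before a RefSeq start on GRCm38, in which capitals mark the letters TGTGGT or TGCGGT, the core recognised by RUNX factors, on either strand. Part of the Runx3 window lies in an exon of Gm16225, a gene on the opposite strand. Isl2 is shown for the largest increase among the factors that could be tested, Runx3 and Etv1 because they hold such letters and were higher in every mutant mouse, and Tlx3 because it holds them as well and its values overlapped between genotypes.
Isl2, chr9:55540899-55541148, plus strand: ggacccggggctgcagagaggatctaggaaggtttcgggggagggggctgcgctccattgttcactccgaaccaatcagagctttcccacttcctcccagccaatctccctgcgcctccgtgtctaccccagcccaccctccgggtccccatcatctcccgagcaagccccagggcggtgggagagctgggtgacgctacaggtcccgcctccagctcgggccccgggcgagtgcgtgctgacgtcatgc
Runx3, first start, chr4:135120395-135120644, plus strand: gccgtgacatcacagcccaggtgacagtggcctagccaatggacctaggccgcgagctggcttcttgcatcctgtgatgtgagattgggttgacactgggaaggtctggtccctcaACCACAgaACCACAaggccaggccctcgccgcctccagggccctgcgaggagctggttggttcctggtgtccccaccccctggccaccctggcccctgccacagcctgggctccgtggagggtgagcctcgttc
Etv1, first start, chr12:38779832-38780081, plus strand: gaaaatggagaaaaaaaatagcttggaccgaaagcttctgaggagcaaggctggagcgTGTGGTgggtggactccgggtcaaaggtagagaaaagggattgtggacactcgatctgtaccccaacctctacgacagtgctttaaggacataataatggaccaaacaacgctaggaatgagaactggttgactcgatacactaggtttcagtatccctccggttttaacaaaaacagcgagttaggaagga
Tlx3, chr11:33203589-33203838, minus strand: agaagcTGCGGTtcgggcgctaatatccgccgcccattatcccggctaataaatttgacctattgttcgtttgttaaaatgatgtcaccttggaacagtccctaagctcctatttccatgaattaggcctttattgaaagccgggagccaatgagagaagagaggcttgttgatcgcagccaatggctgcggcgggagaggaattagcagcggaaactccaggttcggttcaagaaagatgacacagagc

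The first Runx3 window holds the RUNX letters at 2 places, beginning 134 and 126 bases before the start. The Etv1 window holds them at 192 bases and the Tlx3 window at 244 bases before the start. From RefSeq, 12 windows were examined for 9 of the 10 factors, with Pou4f3 left out of this search. The other 9 windows, among them both of Runx1 and those of Isl1 and Pou4f1, hold no such letters. Of all 32851 promoter windows of this length, 18.6% hold them. The letters TAATTA, a core of many homeodomain factors, are in none of the 12 windows and in 4.84% of all windows. The letters CCGGAA, recognised by ETS factors such as Etv1, stand once, 106 bases before the second start of Runx1, and in 12% of all windows. The 3 kinds of letters do not overlap one another in these windows. A match of letters is a description, and the counts are per gene and do not tell which start was used.

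Isl2, Runx1, Etv1 and Pou4f3 were higher in Dok6 mutant nerves, Runx3 appeared in the mutants from almost no counts in the controls, and no factor was lower with an adjusted p-value under 0.05. Of the 10 factors, 9 passed the filter on low counts and were tested with edgeR's quasi-likelihood test, adjusted by the Benjamini-Hochberg method over the 17099 genes tested. None of the 9 needed the mutant libraries to pass the filter. Isl2 and Runx1 rose past an absolute log2 fold change of 2 with an adjusted p-value under 0.05, the threshold of the study, and 1.08% of all genes tested were called higher in this way. With the p-value alone, 4 of the 9 factors rose and none fell, where 8.62% of all genes rose, 6.01% fell and 14.6% passed in either direction. For 5 of the 9, every mutant mouse was above every control mouse, a pattern that 19.6% of all genes tested had. The median log2 fold change of the 9 factors was 1.09, against 0.01 for all genes tested. Without control mouse 2, edgeR called none of the 10 factors, although 6 of them had an unadjusted p under 0.05. In that fit 0.387% of all genes passed. Also without control mouse 2, DESeq2 called 5 factors, with 9.46% of all genes, and limma voom called none, with 4 at an unadjusted p under 0.05 and 0.0284% of all genes called. In edgeR, Isl2 and Runx1 alone passed without control mouse 1, where 9.15% of all genes did, and without mutant mouse 2, where 4.16% did.

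**Figure D1:**
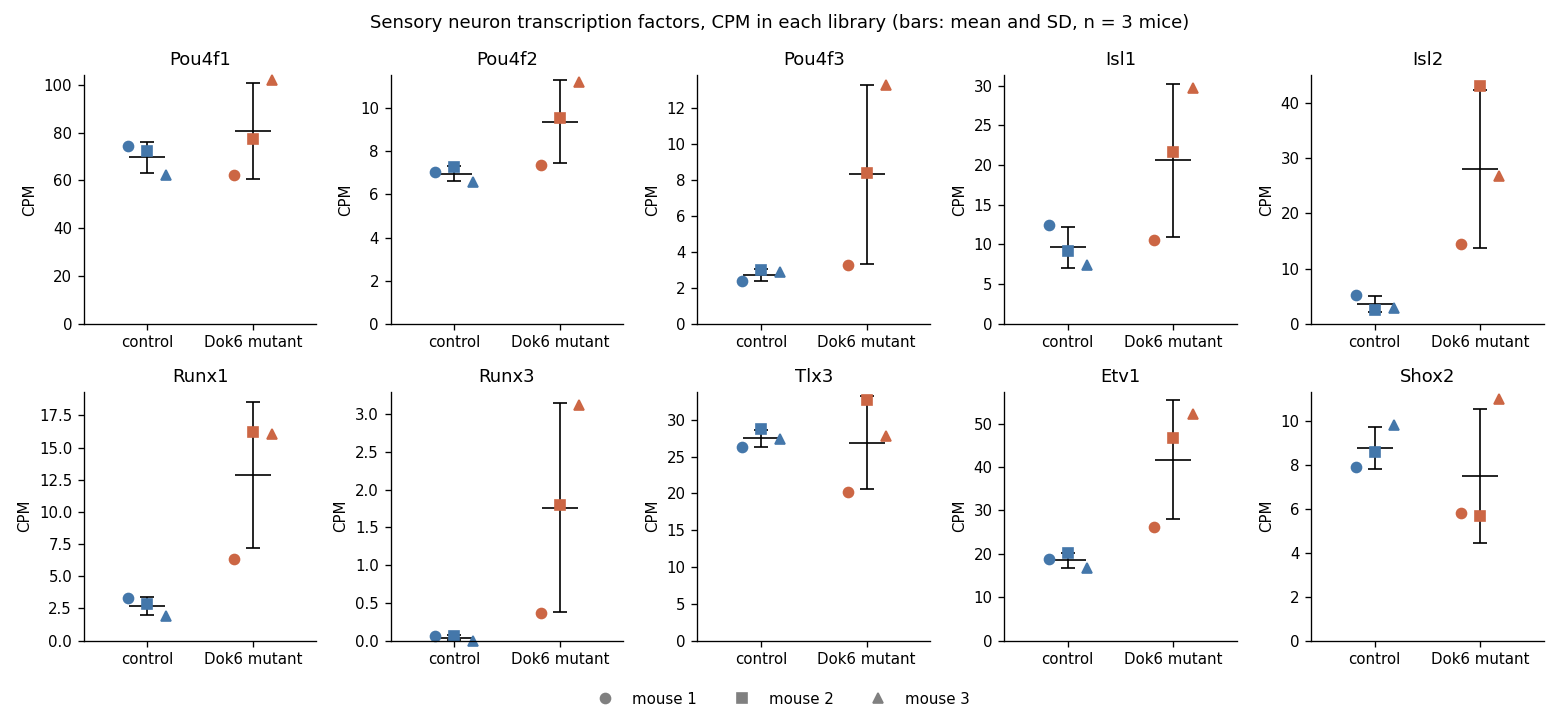
CPM (TMM-scaled, linear axes from 0) of each factor in the 3 control and 3 Dok6 mutant libraries, with marker shapes for mouse number and bars for mean and SD. Isl2, Runx1, Runx3, Etv1, Pou4f2 and Pou4f3 show no overlap of the genotypes, while mutant mouse 1 is the lowest mutant in 9 of the 10 panels.

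Of the POU factors, only Pou4f3 had an adjusted p-value under 0.05 in the reported edgeR fit, and differences among them were not tested. Pou4f1 (ENSMUSG00000048349, chromosome 14 of GRCm38, 104461676 to 104467999) gave 74.6, 72.2 and 62.4 CPM for the control mice and at 62.2, 77.5 and 102 in the mutant libraries. The genotypes overlapped, with mutant mouse 1 below every control and mutant mice 2 and 3 above every control. The log2 fold change was 0.21 (standard error, SE, of 0.17, 95% interval -0.17 to 0.59, edgeR adjusted p = 0.416). With each mouse left out in turn, that of Pou4f1 ranged from 0.001, without mutant mouse 3, to 0.36, without mutant mouse 1, and never passed. Pou4f2 (ENSMUSG00000031688, chromosome 8), a close relative that sensory neurons use in smaller numbers, was at 7.06, 7.28 and 6.58 CPM in the controls and at 7.37, 9.55 and 11.2 in the mutants. The 2 groups did not overlap, but mutant mouse 1 lay just above the highest control, and the log2 fold change of 0.43 (SE 0.19) did not pass (edgeR adjusted p = 0.147). Pou4f3 (ENSMUSG00000024497, chromosome 18) was the lowest of the family in the controls, at 2.35, 2.98 and 2.86 CPM, and was at 3.27, 8.40 and 13.3 in the mutants. Mutant mouse 1 was close to the controls and mutant mouse 3 was 4.05 times mutant mouse 1. The log2 fold change was 1.6 (SE 0.44, edgeR adjusted p = 0.0447). With each mouse left out in turn, Pou4f3 passed in 1 of the 6 edgeR fits, with adjusted p-values from 0.00872 to 0.140, and in limma voom it had an adjusted p of 0.121.

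Of the LIM-homeodomain pair Isl1 and Isl2, only Isl2 had an adjusted p-value under 0.05 in that fit. Isl2 (ENSMUSG00000032318, chromosome 9, 55538672 to 55546180), which marks postmitotic sensory and motor neurons, was at 5.28, 2.58 and 2.80 CPM in the control libraries and at 14.4, 43.1 and 26.7 in mutant mice 1, 2 and 3. All 3 mutants were above all 3 controls, and mutant mouse 2 was the highest. The means were 3.55 ± 1.5 (SD, n = 3 mice) and 28.1 ± 14.4 (SD, n = 3 mice), with a log2 fold change of 2.98 (SE 0.43, edgeR adjusted p = 0.00918). Isl1 (ENSMUSG00000042258, chromosome 13, 116298281 to 116309689), which is needed for nociceptor genes, was at 12.5, 9.12 and 7.38 CPM in the controls and at 10.5, 21.6 and 29.7 in the mutants. Mutant mouse 1 lay within the control range and the other mutants above it. The log2 fold change of Isl1 was 1.09 (SE 0.35, edgeR adjusted p = 0.068), and DESeq2 gave 1.08 with an adjusted p of 0.00625. Isl2 was over 0.05 in 1 of the 6 fits that left out a mouse, that without control mouse 2 (log2 fold change 2.79, edgeR adjusted p = 0.0628, range over the 6 fits 0.00238 to 0.0628). The 6 markers of motor neurons, which also express both Islet genes, had sums from 106 to 138 CPM in the controls and from 87.9 to 113 in the mutants. Of these, none rose and 1 fell, where 6.01% of all genes tested fell. It was the vesicular acetylcholine transporter gene Slc18a3, at a log2 fold change of -0.47 (edgeR adjusted p = 0.0358).

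Both Runx genes measured were low in the control nerves. Runx1 (ENSMUSG00000022952, chromosome 16, 92601466 to 92826149) was at 3.33, 2.87 and 1.94 CPM in the controls and at 6.33, 16.2 and 16.1 in the mutants. No mutant overlapped the controls, and mutant mice 2 and 3 were alike while mutant mouse 1 was lower. The means were 2.71 ± 0.705 (SD, n = 3 mice) and 12.9 ± 5.66 (SD, n = 3 mice), with a log2 fold change of 2.24 (SE 0.38, edgeR adjusted p = 0.0130). Without control mouse 2 the adjusted p of Runx1 was 0.0747 in edgeR, the highest of the 6 fits that left out a mouse, which began at 0.00155. An antisense gene, Gm26626, shares 106 exonic bases with Runx1 and had at most 4 counts in a library. Runx3 (ENSMUSG00000070691, chromosome 4, 135120652 to 135177990) had 1, 1 and 0 counts in the control libraries and 7, 33 and 59 in mutant mice 1, 2 and 3, which is 0.363, 1.80 and 3.13 CPM. Every mutant was above every control, and the mutants differed 8.61-fold among themselves. Runx3 did not pass the filter, and from the pooled counts of 99 against 2 it was 45.9-fold higher in the mutants with an exact 95% interval of 12.4 to 384 for counting error only. Runx1 and Runx3 also mark blood cells, so the 11 blood and immune markers were examined beside them. They summed to between 62.3 and 93.5 CPM in the controls and between 102 and 131 in the mutants, none of the 8 tested passed an adjusted p of 0.05, and the T cell genes Cd3e and Cd8a had no count in any control and at most 2 in a mutant. Of the 8 tested, 3 were higher in every mutant than in every control, as were 19.6% of all genes tested, and 1 was lower in every mutant, as were 18.7%. Csf1r, the macrophage receptor gene and the highest of the list, was one of the 3, at 44.2, 31.5 and 44.9 CPM in the controls and 59.0, 62.0 and 47.0 in the mutants. Their part in the Runx1 and Runx3 values was not tested.

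Etv1 rose, whereas Tlx3 and Shox2 overlapped between genotypes. Etv1 (Er81, ENSMUSG00000004151, chromosome 12, 38779380 to 38870484), an ETS factor through which proprioceptors form their contacts in the spinal cord, was at 18.7, 20.2 and 16.7 CPM in the controls and at 26.1, 46.7 and 52.3 in the mutants. The lowest mutant was above the highest control, and the log2 fold change was 1.17 (SE 0.23, edgeR adjusted p = 0.0192). It was over 0.05 in 3 of the 6 fits that left out a mouse, those without control mouse 1 (adjusted p = 0.0502), control mouse 2 (0.0841) and mutant mouse 2 (0.0569 from the same edgeR test). A transcript of another gene, Gm5454, is nearly identical to part of Etv1 (95% or more over 200 bases or more), and it had 56, 46 and 48 counts in the controls and 66, 94 and 87 in the mutants, so some reads may be split between them. Tlx3 (ENSMUSG00000040610, chromosome 11, 33200752 to 33203589), a homeobox factor of nociceptors and of excitatory neurons of the dorsal spinal cord, was at 26.3, 28.7 and 27.4 CPM in the controls and at 20.2, 32.7 and 27.9 in the mutants. The controls lay close together, with mutant mouse 1 below and mutant mouse 2 above them. The log2 fold change was -0.03 (SE 0.17, 95% interval -0.41 to 0.35, edgeR adjusted p = 0.917). Shox2 (ENSMUSG00000027833, chromosome 3, 66971727 to 66981771), which acts in touch receptor neurons and in spinal interneurons, was at 7.92, 8.60 and 9.84 CPM in the controls and at 5.81, 5.67 and 11 in the mutants. Mutant mice 1 and 2 were below the controls and mutant mouse 3 above them, with a log2 fold change of -0.23 (SE 0.27, 95% interval -0.84 to 0.38, edgeR adjusted p = 0.585). With each mouse left out in turn, that of Shox2 ranged from -0.61, without mutant mouse 3 (edgeR adjusted p = 0.0578), to -0.06. Exons of Rsrc1 on the opposite strand share 153 bases with Shox2, and whether strand was used in counting is not given in the sources used here.

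**Figure D2:**
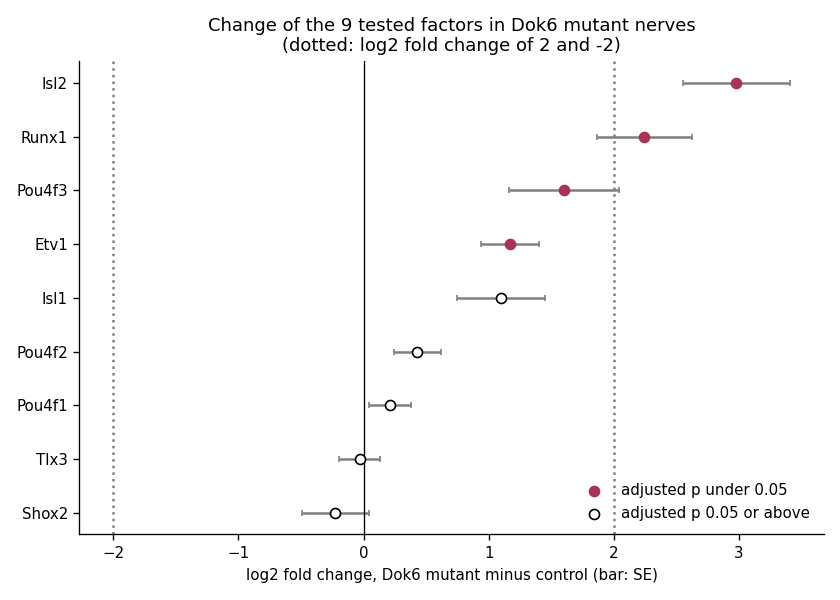
Log2 fold change of Dok6 mutant against control from edgeR for the 9 factors tested, with bars for the standard error, filled points where the adjusted p is under 0.05 and dotted lines at 2 and -2. Isl2 at 2.98 and Runx1 at 2.24 lie past the line at 2, and Etv1 and Pou4f3 are filled below it.

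To compare levels between genes, counts were divided by the gene length given in the table and scaled to a fixed total per library (TPM). In the controls Tlx3 was the highest factor at 63.0 ± 2.42 TPM (SD, n = 3 mice), followed by Pou4f1 at 52.5 ± 6.11 (SD, n = 3 mice), and the values of these 2 did not overlap. Shox2, Isl1, Pou4f2, Isl2, Etv1 and Pou4f3 followed between 9.31 and 4.06 TPM, and each overlapped its neighbour in this order. Runx1 at 0.796 ± 0.225 TPM (SD, n = 3 mice) and Runx3 at 0.0272 TPM came last and apart from all others. In the mutants Tlx3 and Pou4f1 were again first, at 65.2 and 64.3 TPM, and Isl2 ranked 3 at 47.4 ± 23.3 TPM (SD, n = 3 mice), where it had ranked 6 in the controls. Isl1 followed at 19.4 TPM, then Pou4f3, Etv1, Pou4f2 and Shox2 from 13.1 to 8.48 TPM, and all neighbours from Tlx3 to Shox2 overlapped. Runx1, at 3.98 TPM, was below Shox2 in every mutant, and Runx3, at 1.32, overlapped Runx1.

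The ratio of 2 factors within a library does not depend on the scaling between libraries. Counts of Isl2 were below those of Isl1 in the controls, at log2 ratios of -1.23, -1.81 and -1.39, and near or above them in the mutants, at 0.45, 1.00 and -0.15. The genotypes did not overlap, and the mean log2 ratio was 1.91 higher in the mutants. The log2 ratio of Runx1 to Pou4f1 was -4.47, -4.64 and -4.98 in the controls and -3.29, -2.25 and -2.67 in the mutants, a mean difference of 1.96 without overlap. The ratio of Etv1 to Pou4f1 was also higher in every mutant, by 0.93 on average, and that of Pou4f1 to Isl1 was lower in every mutant, by a mean difference of -0.82. Only for Tlx3 to Pou4f1 among the 5 ratios did the genotypes overlap, with a mean difference of -0.24 (exact permutation test, two-sided, p = 0.30). For each of the other 4 ratios the two-sided exact permutation test gave p = 0.10, the smallest that 3 mice against 3 can give, and 0.125 after adjustment over the 5 ratios, so this test cannot give values below 0.05 with 3 mice a group.

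**Figure D3:**
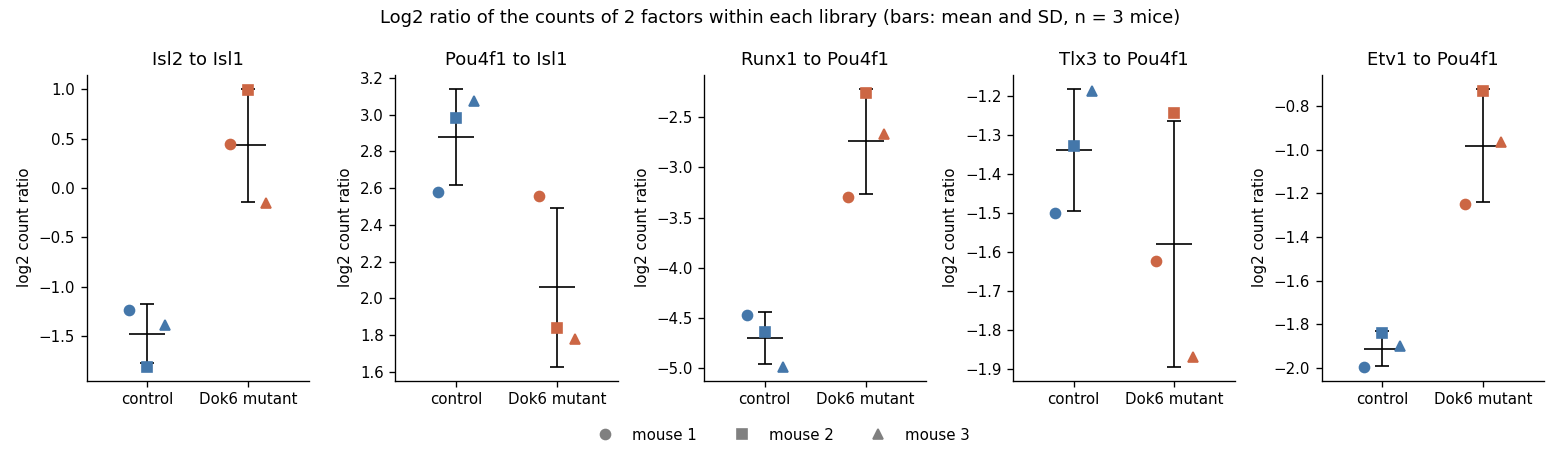
Log2 ratio of the counts of 2 factors within each library, for 3 control and 3 Dok6 mutant mice, with bars for mean and SD. The genotypes are apart for Isl2 to Isl1, Pou4f1 to Isl1, Runx1 to Pou4f1 and Etv1 to Pou4f1, and overlap for Tlx3 to Pou4f1.

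The mutant mice were not alike in these genes. Mutant mouse 1 had the lowest mutant value for 9 of the 10 factors, and mutant mouse 3 the highest for 7 and mutant mouse 2 for 3. The 10 factors summed to 158, 155 and 138 CPM in the controls and to 156, 263 and 293 in mutant mice 1, 2 and 3, so the sum in mutant mouse 1 lay within the control range. The order of the mutants differed in the marker lists. Schwann cell markers were highest in mutant mouse 2, connective tissue, cartilage and bone markers also in mutant mouse 2 (1255 CPM, with 796 and 709 in mutant mice 1 and 3 and at most 338 in a control), and muscle markers in mutant mouse 1. The 18 nociceptor and itch neuron genes had sums from 504 to 511 CPM in the controls, against 539, 873 and 814 for mutants 1, 2 and 3. The 16 spinal interneuron markers were lower in every mutant than in every control as a sum, and 2 of them fell in the edgeR test, Slc32a1 at a log2 fold change of -0.32 (adjusted p = 0.0487) and Pax2 at -0.62 (adjusted p = 0.0287), while none rose. Of all genes tested 6.01% fell. All 16 had a negative log2 fold change, with a median of -0.37, and 7 were lower in every mutant than in every control, as were 18.7% of all genes tested.

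**Figure D4:**
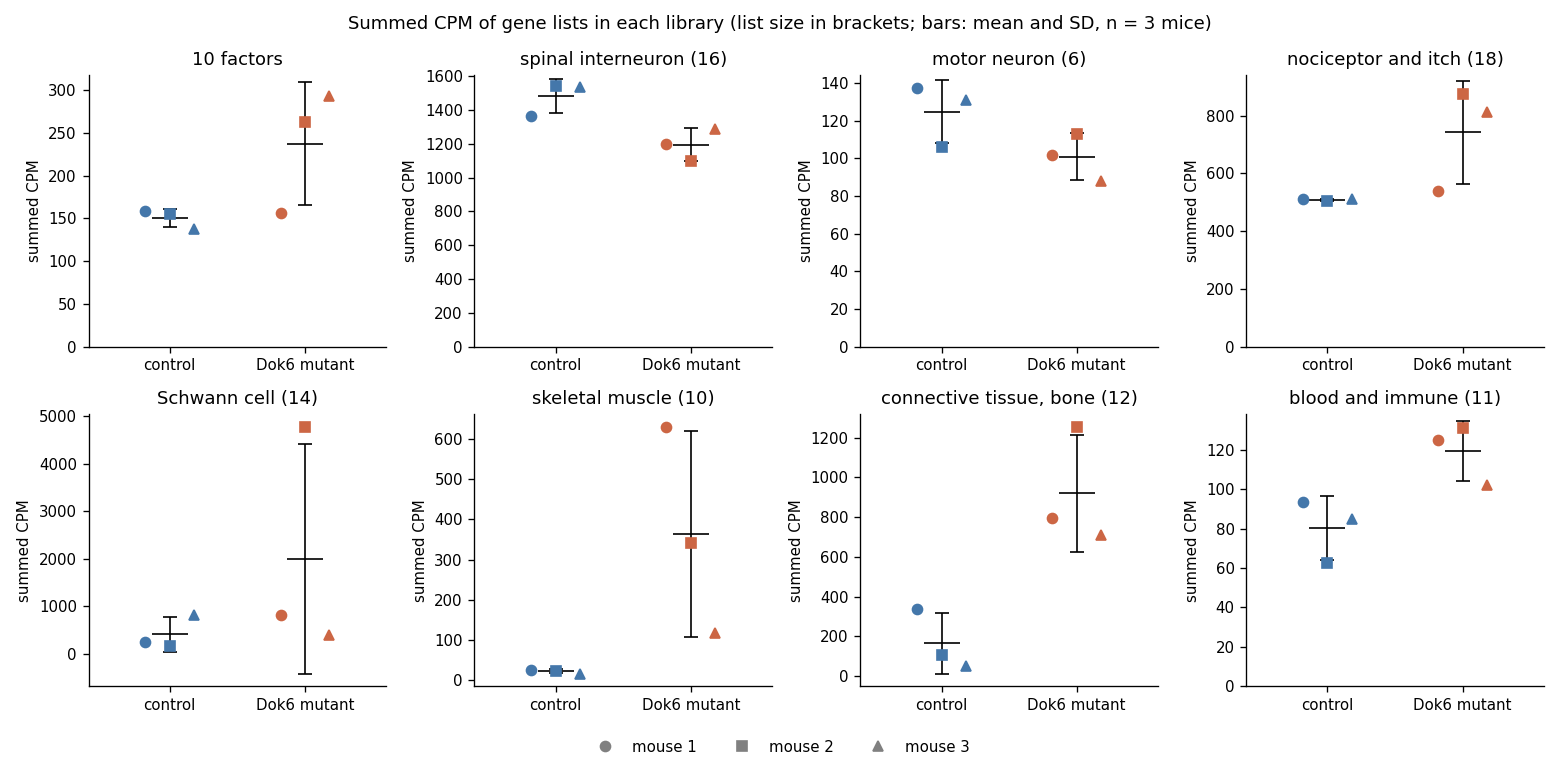
Summed CPM of the 10 factors and of 7 lists of marker genes in each library on linear axes, with marker shapes for mouse number and bars for mean and SD. Mutant mouse 1 is lowest among mutants for the factors and for nociceptor genes, mutant mouse 2 is highest for Schwann cell markers at 4773 CPM, and mutant mouse 1 is highest for muscle markers at 630 CPM.

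A list of 26 other transcription regulators and cofactors of sensory neuron development was set beside the 10 factors. Of these, 24 passed the filter, 7 rose, 2 fell and 15 did not pass an adjusted p of 0.05, with a median log2 fold change of 0.09. Of all genes tested, 8.62% rose and 6.01% fell. Prdm12, a chromatin regulator that human pain neurons require, was at 0.459, 1.20 and 0.858 CPM in the controls and at 10.2, 37.4 and 32.8 in the mutants. All mutants were far above the controls, with a log2 fold change of 4.98 (SE 0.56, edgeR adjusted p = 0.00588). Tlx2, a relative of Tlx3 in neural crest neurons, had 3, 6 and 7 counts in the controls and 38, 166 and 179 in the mutants. Its fitted log2 fold change was 4.45. In all, 3 members of the list rose past a log2 fold change of 2, and these 3, Prdm12 and Tlx2 among them, passed the filter only through their mutant libraries. The sizes of these changes rest on few control counts, and genes that pass in this way had to differ. Cbfb, the partner subunit that RUNX proteins need to bind DNA, was at 45.1, 40.6 and 36.8 CPM in the controls and at 56.2, 69.0 and 57.4 in the mutants, and its change on the log2 scale was 0.58 (edgeR adjusted p = 0.0198). Ldb2, a cofactor that binds LIM-homeodomain proteins, rose by 0.46, Zfhx2, a homeobox gene linked to pain sensing, by 0.66, and Six4 by 1.15. The 2 that fell were the basic helix-loop-helix gene Neurod1, at -0.72, and Mafa, at -0.32, which was the highest of the list at a mean of 155 CPM. Maf and Ldb1, the next in level at 105 and 97.9 CPM, had log2 fold changes of 0.10 and -0.05 and did not pass. Hmx1 and Neurog1 did not pass the filter, and Hmx1 had 0, 1 and 1 counts in the controls and 6, 16 and 79 in mutant mice 1, 2 and 3. Neurog1, which starts sensory neurogenesis in the embryo, had counts in mutant mouse 3 only, where there were 5. Without control mouse 2, the lowest of the 6 fits that left out a mouse, 2 of these regulators passed, with 0.387% of all genes. There were 5 without control mouse 3, with 9.25% of all genes, and 4 without mutant mouse 2, with 4.16%.

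Genes of the neuron subtypes that these factors specify were counted as lists. Of 18 nociceptor and itch genes, 15 passed the filter, 8 rose and none fell, with a median log2 fold change of 1.28, where 8.62% of all genes tested rose. Of the 8, 2 passed the filter only through the mutants, so the count and the median are no support for a change of the list. The 3 highest of the list, Ret, Gfra2 and Prkcq, had log2 fold changes of 0.29, 0.00 and -0.06 and did not pass. Mrgpra3, Mrgprb4 and Mrgprb5, receptors of itch neurons, were at 0 in all control libraries. Mrgpra3 had 14, 35 and 0 counts in mutant mice 1, 2 and 3, and the other two had at most 2 in a mutant. Of 7 proprioceptor genes, all tested, Pvalb and Slc17a7 rose, at log2 fold changes of 2.15 (adjusted p = 0.0382) and 3.49 (edgeR adjusted p = 0.00918), and none fell. Slc17a7 had 17, 7 and 9 counts in the controls and 61, 174 and 166 in the mutants, and passed the filter only through the mutants. Pvalb encodes parvalbumin, the usual label of proprioceptors, and was at 0.803, 1.6 and 2.12 CPM in the controls and at 2.28, 6.87 and 11 in the mutants. The most abundant proprioceptor gene, Ntrk3 (TrkC), was above every control in every mutant, with a log2 fold change of 0.29 that did not pass (edgeR adjusted p = 0.0874).

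The genes whose profile was most like that of each tested factor were sought among 15693 genes with a mean of at least 1 CPM. The measure was the root mean square difference (RMS) of log2 CPM over the 6 libraries, each gene centred on its own mean, and it is a description over libraries that share depth and tissue. The 3 nearest genes to Runx1 were Mmp25, Asic3 and Piezo2, at RMS values of 0.19, 0.21 and 0.21. Asic3 encodes an acid-sensing channel of sensory neurons, and Piezo2 the touch channel, which was at between 22.6 and 26 CPM in the controls and at 69.7, 171 and 178 in the mutants. Isl2 was nearest to Steap4, Samsn1 and Slc17a7, all at an RMS of 0.25 to 0.26. Pou4f3 was nearest to Trpm8, the cold channel, at 0.27, then to Dgkh and Rtn4rl2. Isl1 and Etv1 shared their nearest gene, Slc52a3, at 0.18 and 0.11, and Ngfr, the p75 neurotrophin receptor gene, was second for Isl1 at 0.18. Pou4f1 was nearest to Gm9828, Cacna1b and Trpc4, and Pou4f2 to Klf7, itself a regulator of sensory neurons, at 0.05. Tlx3 was nearest to Pop5, at 0.05, and Gm3411 and Fam221a were among the 3 nearest to Shox2, at 0.08 and 0.09. Among pairs of the factors themselves, Pou4f1 and Pou4f2 were the most alike at an RMS of 0.13, and Isl2 and Shox2 the least, at 1.72.

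**Figure D5:**
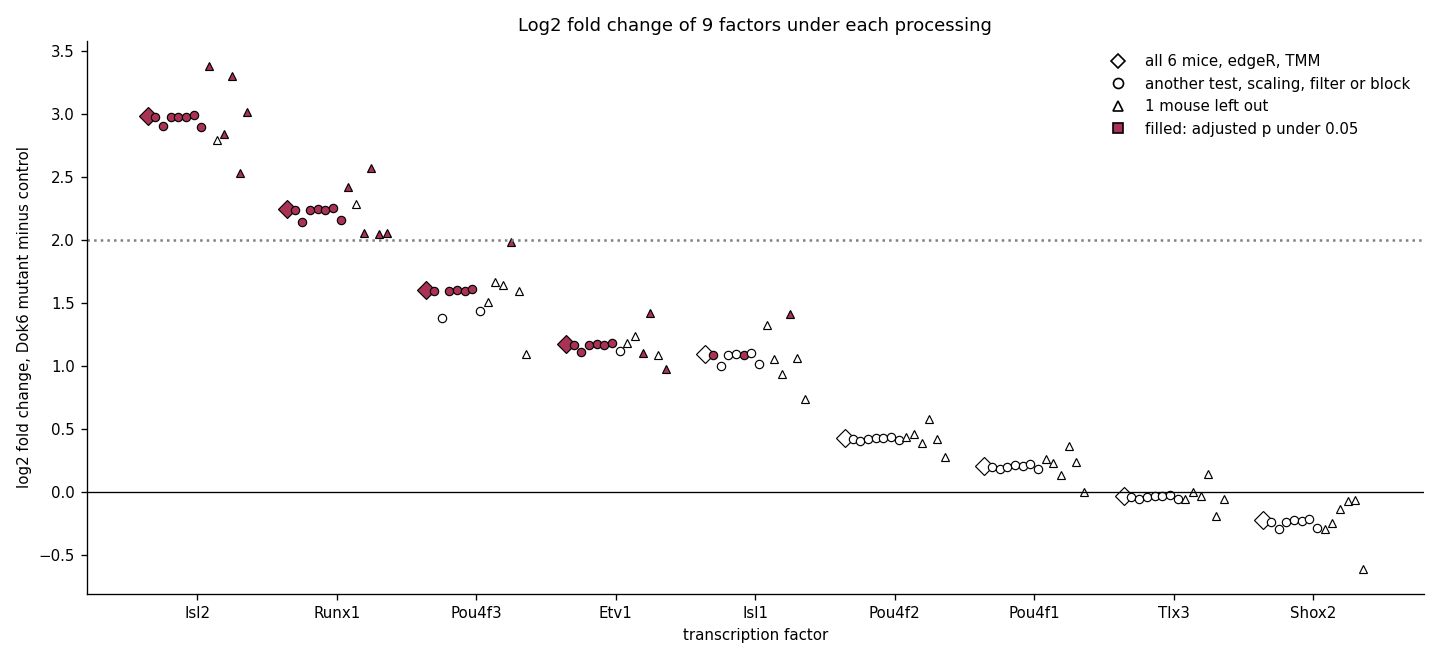
Log2 fold change of the 9 tested factors under the reported fit (diamonds), under other tests, scalings, filters and the replicate block (circles) and with 1 mouse left out (triangles), filled where the adjusted p is under 0.05. Isl2 stays between 2.53 and 3.38 and Runx1 between 2.04 and 2.57, while Tlx3 lies between -0.19 and 0.14 and Pou4f1 between 0.001 and 0.36.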

How the data were processed

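One RNA library was made from the P3 sciatic nerve of each mouse. The labels name the NEBNext Ultra RNA kit and the methods its Directional version. Per the submitters' processing notes the build was mm10, and the aligner, the counter and the use of strand are not given in the sources used here. The authors deposited raw read counts per gene, not normalized, with a gene length in bases, used here only for TPM. Columns were matched to samples by genotype and mouse number. The mice are separate animals, and the members and lists were chosen with earlier results of these data known.

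The test was edgeR's quasi-likelihood test (edgeR 4.0.16, R 4.3.3, with filterByExpr, TMM, glmQLFit and glmQLFTest, all 6 libraries, no block, Benjamini-Hochberg over all genes tested). The threshold was an adjusted p under 0.05, alone or with an absolute log2 fold change above 2. Standard errors were derived from the F statistic. Ratios of 2 factors used a prior of 0.5 count and an exact permutation test, and RMS profiles used log2 CPM with a prior count of 2. Alternatives were DESeq2 1.42.0, limma 3.58.1 voom, scaling by RLE or by the upper quartile, all genes without a filter, genes with 10 or more counts in each library, the replicate number as a block and each mouse left out, and the procedure was tested on simulated data. DESeq2 and voom without control mouse 2 were added after seeing the data.

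Named genes were the 10 factors, Dok6, the other regulators with an adjusted p under 0.05 and the 3 highest of that list, leading or absent genes of the marker lists, and the 3 nearest profiles of each factor. Cd3e, Slc18a3, Slc32a1, Pax2, Pvalb, Slc17a7, Necab2, Gap43, Hmx1 and Neurog1 were chosen after their values were seen where they fall outside this rule. Positions are from GENCODE M21 (GRCm38), which holds 54409 of the 54532 identifiers, promoter sequences from RefSeq on GRCm38.p6, and similar transcripts from BLAST 2.17.0. A few genes that the rule names are not reported here. No 2 libraries agreed within sampling noise.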

Additional observations from a re-analysis of the deposited data

How the results depend on the processing

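The count of 2 factors called past a log2 fold change of 2 was 2 under DESeq2, limma voom, RLE and upper-quartile scaling, at least 10 counts in every sample and the replicate block, and 3 with no filter, where Runx3 was tested (log2 fold change 5.29, adjusted p = 0.000331 from edgeR, a value that depends on the prior count). With a threshold of 1 on the log2 fold change it was 4, and the share of all genes at that threshold is not given here. Past 2, 364 of 30965 genes were called with no filter and 204 of 17099 in the report. With each mouse left out the count of factors past 2 ranged from 0 to 3. The count of factors with an adjusted p under 0.05, 4 in the report, ranged from 0 to 6. The count of other regulators, 9 in the report, ranged from 2 to 9 with each mouse left out. It was 5 with at least 10 counts in every sample, where fewer genes were tested and 15.3% of them passed. Tlx3 changed sign without mutant mouse 1, to 0.14, and ranged from -0.19 to 0.14 over these fits, never past the threshold. The counts without control mouse 2 were the lowest, and the cause was not tested. The labels do not say whether mice of the same number were pairs. Deviations of same-numbered mice had correlations across genes of -0.01, -0.17 and -0.24, and with the replicate block 2 factors, Isl2 and Runx1, and 3 other regulators had an adjusted p under 0.05, where 3.29% of all genes did. Depth limits the control values of Runx3, at most 1 count a library, and of Runx1 and Pou4f3, at 34 to 58 and 41 to 52 counts.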

Other observations

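Of 10 genes shared by most sensory neurons, 5 rose and none fell in edgeR's quasi-likelihood test, where 8.62% of all genes tested rose and 6.01% fell. The 5 that rose, named here after their values were seen, were Scn10a, Tusc5, Avil, Scn9a and Prph, with log2 fold changes of 5.58, 4.47, 3.76, 1.46 and 1.36. Tubb3, Stmn2 and Nefl, general neuronal genes and the 3 highest of the list, had log2 fold changes of -0.29, -0.30 and -0.12 and did not pass. All 5 that did not rise had negative log2 fold changes. Of these 1, Gap43 (-0.38), was lower in every mutant than in every control and did not pass (edgeR adjusted p = 0.0687). Of 7 touch receptor genes, 2 rose, among them Piezo2 (2.50), and none fell. Another 2, Gfra1 (-0.26) and Necab2 (-0.35), were lower in every mutant than in every control, as were 18.7% of all genes tested, and did not pass an adjusted p of 0.05. The most abundant of them, Ntrk2, the receptor gene for BDNF, was at 543 CPM on average, with a log2 fold change of 0.01.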
